A study of Mus musculus with 4 samples.

Results

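The genes of calcium-regulating hormone action examined here were Vdr, Cyp24a1, Cyp27b1, Kl, Fgfr1, Fgfr3, Fgfr4, Pth1r and Casr. They were chosen by name, and every array probe whose platform gene symbol was one of these names was taken. This gave 15 probes for the 9 genes, of 39429 probes and 21713 named genes measured. Kl and Fgfr4 had 2 probes each, Fgfr1 and Fgfr3 had 3 each, and the other 5 genes had 1 each.

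The samples were fluorescent kidney tubule fragments of B6D2F2 mice that carry PV-eGFP, a transgene in which the parvalbumin promoter drives a green fluorescent protein. All mice of both diets carried it and were 6 to 8 weeks old when the tubules were isolated. The low-magnesium group ate a diet with 0.02% magnesium by weight, and the high-magnesium group one with 0.48%, each for 15 days, of which all mice spent the last 48 hours in metabolic cages. A normal chow group was not analysed here, so the differences below are between a low and a high intake. Each sample was RNA pooled from 4000 sorted fragments and amplified before labelling with Cy3 or Cy5. The 8 samples were hybridised as 4 littermate pairs, each array holding 1 sample of each diet. Pairs are written by their sample numbers (L for low, H for high), as L1/H1, L2/H3, L7/H7 and L8/H8. Cy5 marked the low-diet sample of L1/H1 and L7/H7 and the high-diet sample of L2/H3 and L8/H8. How many mice gave a sample is not stated in the labels, so p-values refer to the spread between pairs. Since the fit has a term for the dye, that is the spread between the 2 pairs with the same dye order, moderated by that of all probes. The number of arrays limits the precision.

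Blood calcium and phosphate are held steady by a loop between gut, bone, parathyroid gland and kidney. Parathyroid hormone acts through the receptor encoded by Pth1r, and active vitamin D, made by the enzyme of Cyp27b1 and broken down by that of Cyp24a1, acts through the nuclear receptor encoded by Vdr. FGF23 from bone binds FGF receptors together with klotho, the product of Kl, and the calcium-sensing receptor, encoded by Casr, reads the calcium outside the cell. In the distal convoluted tubule (DCT), where the last regulated uptake of filtered magnesium takes place, vitamin D and parathyroid hormone are known to promote calcium uptake, and klotho is made in large amounts.

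The bases upstream of the annotated starts are shown for the 4 genes that passed the test described below, since 3 of them moved one way and 1 the other. They are the 250 bases before the start in RefSeq's annotation of GRCm38.p6, read 5′ to 3′ on the gene's strand. Capitals mark matches on either strand to the motifs searched: the nuclear receptor half-sites AGGTCA and GGTTCA, the cyclic AMP response element core TGACG, the HNF1 half-site GTTAAT, the GC box GGGCGG and the TATA box TATAAA. The last 2 were added after the sequences had been read. For Vdr the stretch is chr15:97908297-97908546 (minus strand), for Kl chr5:150952357-150952606 (plus strand), for Casr chr16:36562135-36562384 (minus strand) and for Pth1r, at the farthest upstream of its 3 starts in the table, chr9:110747146-110747395 (minus strand).
Vdr: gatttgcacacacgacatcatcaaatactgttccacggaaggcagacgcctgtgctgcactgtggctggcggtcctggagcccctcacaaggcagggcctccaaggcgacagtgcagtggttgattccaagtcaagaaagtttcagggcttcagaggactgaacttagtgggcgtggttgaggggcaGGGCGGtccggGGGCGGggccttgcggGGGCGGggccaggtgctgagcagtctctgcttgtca
Kl: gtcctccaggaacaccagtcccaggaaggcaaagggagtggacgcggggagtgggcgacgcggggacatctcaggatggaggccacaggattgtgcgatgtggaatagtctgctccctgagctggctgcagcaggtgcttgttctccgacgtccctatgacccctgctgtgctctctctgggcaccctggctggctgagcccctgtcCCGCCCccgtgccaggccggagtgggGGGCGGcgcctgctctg
Pth1r: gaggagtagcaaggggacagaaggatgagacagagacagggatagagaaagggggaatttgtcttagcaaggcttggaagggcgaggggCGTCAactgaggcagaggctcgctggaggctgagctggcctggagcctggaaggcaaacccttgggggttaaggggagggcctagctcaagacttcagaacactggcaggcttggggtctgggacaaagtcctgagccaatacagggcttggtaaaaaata
Casr: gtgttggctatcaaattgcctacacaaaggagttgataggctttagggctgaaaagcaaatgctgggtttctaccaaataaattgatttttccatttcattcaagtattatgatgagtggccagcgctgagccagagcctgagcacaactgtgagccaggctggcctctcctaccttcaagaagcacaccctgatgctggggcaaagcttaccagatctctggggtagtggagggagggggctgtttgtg

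The Vdr stretch held 3 GC boxes and the Kl stretch 2, all within the last 63 bases before the start. The Pth1r stretch held 1 cyclic AMP response element core, from 161 to 157 bases before the start, and the other Pth1r starts held 4 and 1 GC boxes. The Casr stretch held none of the motifs. Of 32851 promoter stretches of the same length, 32.7% held the GC box, 17.8% TGACG, 14.0% AGGTCA, 12.4% TATAAA, 8.85% GGTTCA and 6.43% GTTAAT. The share of G and C was 61.2% for Vdr, 66.8% for Kl, 56.0% for Pth1r and 48.8% for Casr, against a median of 52.4% over all stretches. A match is only a run of letters in this window, and nothing on binding follows from it.

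On the low-magnesium diet the transcripts of the vitamin D receptor, of klotho and of the parathyroid hormone receptor were higher, and that of the calcium-sensing receptor was lower. Vdr was 2.06-fold higher, Kl 1.84-fold and Pth1r 1.70-fold, and Casr was 1.68-fold lower. The vitamin D enzymes Cyp24a1 and Cyp27b1 and the receptors Fgfr1, Fgfr3 and Fgfr4 did not pass the test. Ratios are log2 values, low over high diet, so that values above 0 mean more transcript on the low diet. They were tested with limma, with a term for the dye, and an adjusted p is that of limma after Benjamini-Hochberg adjustment over all 39429 probes, read at 0.05. By their brightest probe 4 of the 9 genes passed, 3 higher and 1 lower, where 7.82% of the 21713 named genes passed (4.88% higher and 2.95% lower). Of the 15 probes 4 passed, 3 higher and 1 lower, against 5.82% of all probes (3.48% higher and 2.35% lower). The levels of the diets did not overlap for these 4 genes and their 4 probes, as for 9.19% of all named genes and 7.6% of all probes. The sign was the same in all 4 pairs for 6 of the 9 genes, beside 27.6% of all named genes: the 4 above, Fgfr1 and Fgfr3. In RNA of pooled fragments, fewer cells of a type and less RNA per cell cannot be told apart.

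**Figure D1:**
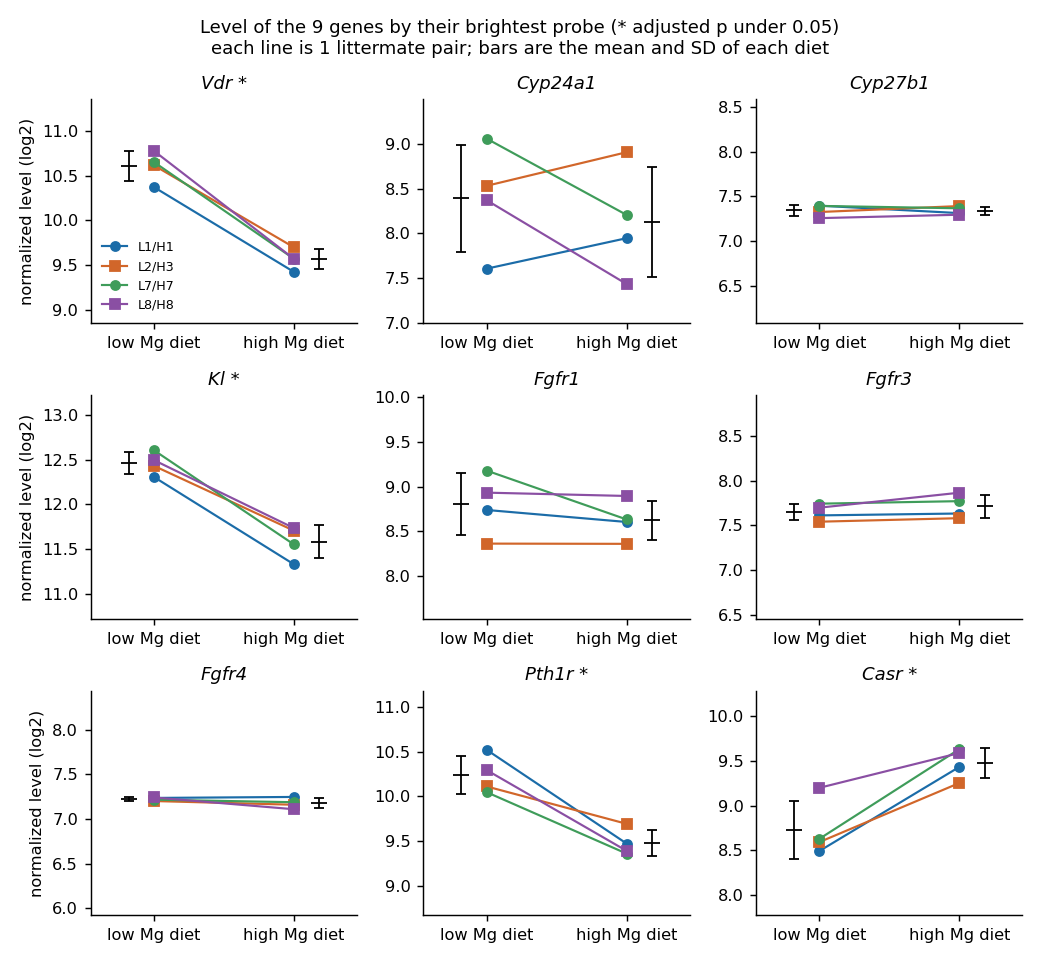
Normalized log2 level of each gene by its brightest probe (y axis, each panel spanning the same log2 range) on the low and the high magnesium diet. Each line joins the samples of 1 littermate pair, circles mark pairs with the low-diet sample in Cy5 and squares those with it in Cy3, the black bars give mean and SD (n = 4), and asterisks mark an adjusted p under 0.05. Vdr, Kl and Pth1r are higher in all 4 low-diet samples than in any high-diet sample, Casr is lower in all 4, and the lines of Cyp24a1 cross.

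Vdr encodes the receptor through which active vitamin D binds DNA as a partner of the retinoid X receptors. Its normalized log2 level was 10.37 in L1, 10.62 in L2, 10.65 in L7 and 10.78 in L8 on the low diet, against 9.42 in H1, 9.70 in H3, 9.57 in H7 and 9.57 in H8 on the high diet. Every low-diet sample was above every high-diet sample. Within pairs the log2 ratio was 0.95 in L1/H1, 0.92 in L2/H3, 1.08 in L7/H7 and 1.21 in L8/H8. The fitted log2 ratio was 1.04 (SE 0.059, 95% interval 0.89 to 1.19, adjusted p = 0.011 by limma), with an SD of 0.13 over the 4 pairs. Its log2 ratio ranked 23 from the highest of the 21713 named genes by their brightest probes. Both dye orientations gave nearly the same value, 1.02 with the low-diet sample in Cy5 and 1.06 with it in Cy3. Without pair L1/H1 the log2 ratio was 1.07 and the adjusted p was 0.0514, and it was below 0.05 without any other single pair.

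Pth1r encodes the G protein-coupled receptor for parathyroid hormone and its related peptide. The normalized log2 level was 10.52 in L1, 10.11 in L2, 10.05 in L7 and 10.29 in L8 on the low diet, against 9.47 in H1, 9.69 in H3, 9.36 in H7 and 9.39 in H8 on the high diet. The diets did not overlap, and L7, the lowest low-diet sample, stood above H3, the highest high-diet sample. The fit gave a log2 ratio of 0.76 (SE 0.10, 95% interval 0.50 to 1.03, adjusted p = 0.030 by limma), with an SD of 0.27 over the 4 pairs. Pair L2/H3 had the smallest log2 ratio, 0.42, and L1/H1 the largest, 1.05. This was the least stable of the 4 calls, since the adjusted p was 0.0932 without L1/H1, 0.0581 without L7/H7 and 0.0753 without L8/H8, with log2 ratios between 0.64 and 0.85. With plain background subtraction the log2 ratio was 0.82 and the adjusted p 0.0605.

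Casr encodes the receptor that senses extracellular calcium and, less strongly, magnesium. It is best known in the kidney from the thick ascending limb, where its activation lowers the uptake of calcium and magnesium. Its normalized log2 level was 8.49 in L1, 8.59 in L2, 8.63 in L7 and 9.20 in L8 on the low diet, against 9.43 in H1, 9.25 in H3, 9.63 in H7 and 9.59 in H8 on the high diet. Every low-diet sample was below every high-diet sample, and L8, the highest of them, lay just below H3 of another pair. The log2 ratio was -0.94 in L1/H1, -0.66 in L2/H3, -1.004 in L7/H7 and -0.39 in L8/H8. The fit gave a log2 ratio of -0.75 (SE 0.053, 95% interval -0.89 to -0.61, adjusted p = 0.013 by limma), with an SD of 0.28 over the 4 pairs. Its log2 ratio ranked 40 from the lowest of the 21713 named genes. The fall was larger with the low-diet sample in Cy5, at -0.97, than with it in Cy3, at -0.53. That dye term had an unadjusted p of 0.009 and an adjusted p of 0.18 by limma, and a dye effect cannot be told apart here from a difference between the pairs of each orientation. Without L1/H1 the log2 ratio was -0.76 and the adjusted p 0.0535.

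Klotho is a membrane protein of the distal tubule that turns FGF receptors into receptors for FGF23, and it is also shed into the blood. By its brighter probe, Kl had a normalized log2 level of 12.31 in L1, 12.43 in L2, 12.61 in L7 and 12.50 in L8 on the low diet, against 11.33 in H1, 11.71 in H3, 11.55 in H7 and 11.74 in H8 on the high diet. The groups lay well apart, with the lowest low-diet sample above the highest high-diet sample. The log2 ratio was 0.98 in L1/H1, 0.72 in L2/H3, 1.05 in L7/H7 and 0.76 in L8/H8. The fitted log2 ratio was 0.88 (SE 0.030, 95% interval 0.80 to 0.96, adjusted p = 0.0083 by limma), with an SD of 0.16 over the 4 pairs. It passed the threshold with any single pair left out, at log2 ratios between 0.86 and 0.90. The ratio averaged 1.02 with the low-diet sample in Cy5 and 0.74 with it in Cy3.

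The dimmer Kl probe did not pass the test and disagreed with the brighter one. Its log2 ratio was -0.25 in L1/H1, 0.10 in L2/H3, -0.07 in L7/H7 and 0.04 in L8/H8. The sign followed the dye orientation. The fitted log2 ratio was -0.05 (95% interval -0.15 to 0.06, adjusted p = 0.61 by limma), an interval that excludes the rise seen with the brighter probe. It was above background in all 8 samples. The sources used here do not say which part of the transcript each probe reads, so whether both read the same Kl transcripts was not tested. With the mean of both probes in place of the brighter one, the log2 ratio of Kl was 0.42 and still passed. That mean contains the rise of the brighter probe, so it is no separate check on it.

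**Figure D2:**
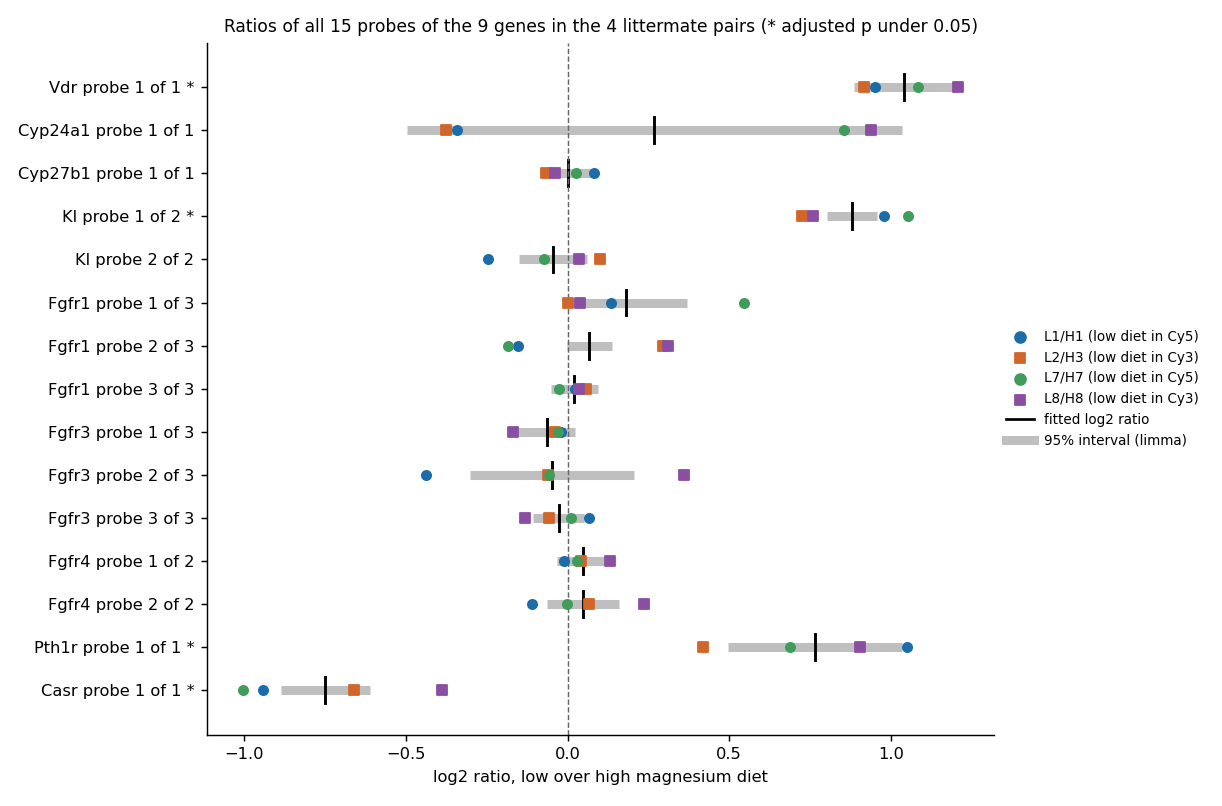
Log2 ratio, low over high magnesium diet (x axis), of all 15 probes of the 9 genes (y axis, the brightest probe of a gene first). Coloured points are the 4 littermate pairs, with shape giving the dye of the low-diet sample, black ticks are the fitted log2 ratios and grey bars their 95% intervals. The Vdr, first Kl and Pth1r probes lie wholly above 0 and the Casr probe wholly below 0, while the second Kl probe and the 8 FGF receptor probes have intervals that include 0.

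The FGF receptors are receptor tyrosine kinases, and those encoded by Fgfr1, Fgfr3 and Fgfr4 can bind FGF23 once klotho is present. None of their 8 probes passed the test, at adjusted p-values between 0.249 and 0.846 by limma, and none had an unadjusted p under 0.05. The brightest Fgfr1 probe had log2 ratios of 0.13 in L1/H1, 0.00 in L2/H3, 0.55 in L7/H7 and 0.04 in L8/H8. A single pair, L7/H7, thus held most of its fitted log2 ratio of 0.18 (95% interval -0.01 to 0.37), and without that pair the value was 0.08. The other Fgfr1 probes had fitted log2 ratios of 0.07 and 0.02. Fgfr3 had -0.06 (95% interval -0.15 to 0.02) by its brightest probe, with -0.05 and -0.03 by the others, and Fgfr4 had 0.05 by each of its probes. Across the 8 probes the 95% intervals ran from -0.30 to 0.37, where the brighter Kl probe had a log2 ratio of 0.88. Mean log2 brightness was 6.51 to 8.71 for these probes and 12.02 for that Kl probe. The offset added in background correction pulls ratios of dim probes towards 0, so the intervals of the dim ones do not bound the change in transcript. The dimmest Fgfr3 probe, with a log2 ratio of -0.03, was above background in 2 of 4 low-diet samples and in all 4 high-diet samples. It was the only one of the 15 probes that was not above background in all 8 samples, and no probe of the 9 genes had a saturated spot.

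Cyp24a1 encodes the 24-hydroxylase that inactivates vitamin D, and its gene is a textbook target of the vitamin D receptor. Its normalized log2 level was 7.60 in L1, 8.53 in L2, 9.06 in L7 and 8.37 in L8 on the low diet, against 7.95 in H1, 8.91 in H3, 8.21 in H7 and 7.43 in H8 on the high diet. The samples of the diets overlapped throughout. The log2 ratio was -0.34 in L1/H1 and -0.38 in L2/H3, but 0.85 in L7/H7 and 0.94 in L8/H8. The pairs thus split by 2 against 2 in a way that did not follow the dye, since each side held a pair of each orientation. Fitted over the pairs, its log2 ratio was 0.27 (95% interval -0.50 to 1.03, adjusted p = 0.69 by limma), with an SD of 0.73 over the 4 pairs. That interval includes no change and ends just below the log2 ratio of Vdr, 1.04.

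Cyp27b1 encodes the 1-alpha-hydroxylase that makes active vitamin D, and in the kidney it is known chiefly from the proximal tubule. Its level hardly differed between samples, from 7.26 to 7.40 on the low diet against 7.29 to 7.39 on the high diet. The fit gave 0.001 on the log2 scale (95% interval -0.07 to 0.08, adjusted p = 0.99 by limma). The Cyp27b1 probe was dim, with a mean log2 brightness of 7.33, so this interval does not bound the change in transcript either. Of the other enzymes of the pathway, Cyp27a1, a vitamin D 25-hydroxylase, had a log2 ratio of 0.09 (adjusted p = 0.28 by limma). Cyp2r1, the main 25-hydroxylase, fell, with a log2 ratio of -0.22 (adjusted p = 0.0485 by limma), but its dimmer probe stood at 0.01. That call was lost under 9 of 14 other processing choices, among them each pair left out, median centring (adjusted p = 0.170) and the mean of its probes (log2 ratio -0.11, adjusted p = 0.115).

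The genes that work with these hormones were examined by 6 lists of partners, ligands and targets, from which the 9 genes were left out. Of their 128 measured genes 21 passed the test, 13 higher and 8 lower, which is 16.4% beside 7.82% of all named genes. The latter share depends on brightness. It was 11.4% with only probes above background on all arrays, and 14.5% with the dimmest 50% of probes left out. Under these 2 choices 23 and 24 list genes passed. How many of the 128 genes these choices kept was not counted, so no share of the lists is given for them. The shares of single lists below were taken without these choices and are to be read with that in mind. The median log2 ratio was 0.01 over the 128 genes and 0.00 over all named genes. The 8 include Avpr2, whose spots were partly saturated and whose sign followed the dye. The count was smaller when 1 pair was left out, from 2 without L8/H8 to 10 without L2/H3, and it was 6 with plain background subtraction, where 0.87% of all named genes passed.

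In the vitamin D system, 19 of 21 listed genes were measured. Of these 1 rose, 1 fell and 17 did not pass (10.5% passed, beside 7.82% of all named genes). Snw1, which encodes a coactivator of the vitamin D receptor also known from splicing, rose by 0.45 ± 0.09 on the log2 scale (SD, n = 4; adjusted p = 0.0149 by limma). Its call was lost under 4 of 14 other processing choices. Rxra, which encodes the partner with which the vitamin D receptor binds DNA, had a log2 ratio of 0.03. The one that fell was Cyp2r1, given above.

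Among 16 measured genes of calcium transport and other known targets of the vitamin D receptor, 2 rose and none fell. That is 12.5%, beside 7.82% of all named genes. Calb1 encodes calbindin-D28k, the calcium buffer of the distal tubule, and it rose by 1.54 ± 0.41 on the log2 scale (adjusted p = 0.0149 by limma), with a second probe at 1.26. Spp1, which encodes osteopontin, rose by 0.63 ± 0.22 (SD, n = 4; adjusted p = 0.0304 by limma). The call of Calb1 was lost under 1 of 14 other processing choices and that of Spp1 under 4. The channels, exchanger and pump of transcellular calcium transport did not pass. Trpv5 and Trpv6, the apical calcium channels, had log2 ratios of -0.11 and -0.06. Slc8a1 and Atp2b1, the exchanger and pump of the basolateral side, had -0.02 and 0.03. The dimmer Atp2b1 probes stood at -0.13, below 0 in all 4 pairs (adjusted p = 0.14 by limma), and at -0.06. The brightest probes of these genes had a mean log2 brightness of 7.09 to 7.75. Their ratios are thus also pulled towards 0 by the offset and do not bound the change in transcript. S100g, the smaller calbindin, had a log2 ratio of -1.07 ± 1.11 with an adjusted p of 0.061 by limma, and its levels on the diets did not overlap. Its size went with the dye orientation. With the low-diet sample in Cy5 it was -0.26 in L1/H1 and -0.17 in L7/H7. With that sample in Cy3 it was -2.55 in L2/H3 and -1.30 in L8/H8. The dye term of S100g had an unadjusted p of 0.010 and an adjusted p of 0.18 by limma. The dimmer S100g probe, at -1.10, passed with an adjusted p of 0.0456 by limma. It too was lower in every pair, and more so with the low-diet sample in Cy3. Slc34a1, the phosphate cotransporter of the proximal tubule that parathyroid hormone and FGF23 control, had -0.64 ± 0.46 and did not pass (adjusted p = 0.14 by limma).

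**Figure D3:**
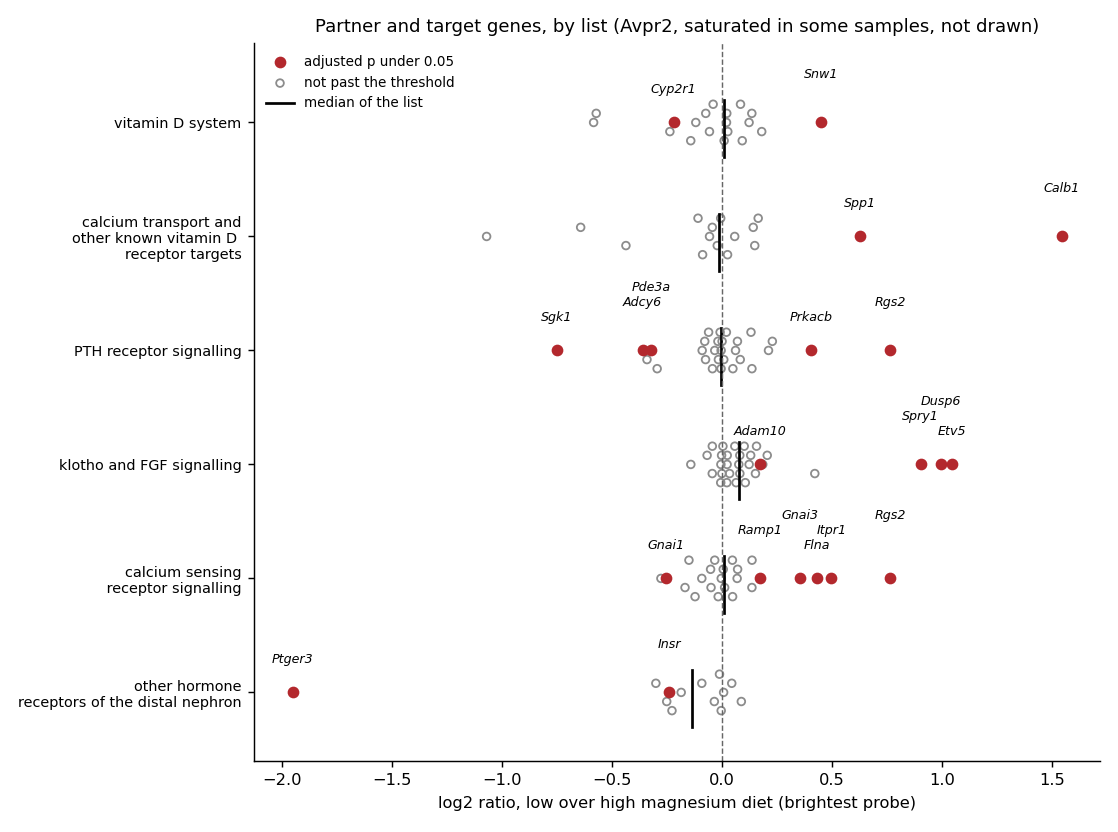
Log2 ratio, low over high magnesium diet (x axis), of the genes of each list (y axis) by their brightest probe. Filled red points passed an adjusted p of 0.05 and are named, open grey points did not, points are spread vertically only for legibility, and the black line is the median of the list. Calb1, Etv5, Dusp6 and Spry1 lie farthest to the right and Ptger3 farthest to the left, while every median lies between -0.14 and 0.08.

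Among 31 measured genes of klotho and FGF signalling, 4 rose and none fell (12.9%, beside 7.82% of all named genes). The median log2 ratio of the list was 0.08. Etv5, a transcription factor induced by FGF and other growth factor signals through ERK, had a log2 ratio of 0.85 in L1/H1, 1.05 in L2/H3, 1.19 in L7/H7 and 1.08 in L8/H8, with an adjusted p of 0.0111 by limma. Dusp6, the phosphatase that switches off ERK and is itself induced by ERK signalling, rose by 0.99 ± 0.17 (SD, n = 4; adjusted p = 0.0129 by limma). Spry1, which encodes the feedback inhibitor Sprouty-1, rose by 0.90 ± 0.35, with its smallest log2 ratio in L1/H1 at 0.41. The levels of the diets did not overlap for any of these 3 genes. Of 14 other processing choices, Etv5 and Dusp6 lost their calls under 1 each and Spry1 under 3. Adam10, a protease that sheds klotho, rose by 0.17 ± 0.06 (adjusted p = 0.0389 by limma), a call lost under 8 of 14 other processing choices. Others of the same feedback group did not pass. Etv4 had a log2 ratio of 0.42 with an adjusted p of 0.0545 by limma, and Spry4, Spry2 and Spred1 had 0.15, -0.04 and 0.06. Egr1, an immediate early gene, had 0.16 with an SD of 1.40 over the 4 pairs. Fgfr2, Fgfrl1 and Klb, which encode another FGF receptor, a receptor without a kinase and the relative of klotho that serves other endocrine FGFs, had log2 ratios of 0.02, 0.08 and -0.00, and Fgf23 itself had -0.04. A dimmer Fgfr2 probe stood at 0.20, above 0 in all 4 pairs (adjusted p = 0.18 by limma), and the rest at -0.01 and -0.03. The dimmer Fgf23 probe, at 0.02, was above background in 2 low-diet samples and 1 high-diet sample. Klb and these dimmer probes had a mean log2 brightness of 6.35 to 6.80, where ratios are pulled towards 0. Etv5, Dusp6 and Spry1 are also known to respond to other receptors that act through ERK, such as that of EGF.

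Among 29 measured genes of signalling from the parathyroid hormone receptor, 2 rose and 3 fell (17.2%, beside 7.82% of all named genes). Rgs2, a regulator that shortens G protein signals and is induced by them, rose by 0.76 ± 0.21 on the log2 scale (adjusted p = 0.0170 by limma), with a second probe at 0.41. Prkacb, a catalytic subunit of protein kinase A, rose by 0.40 ± 0.15 (adjusted p = 0.0418 by limma), with a second probe at 0.29. Sgk1, a kinase induced by steroid hormones, had a log2 ratio of -0.75 ± 0.45 (adjusted p = 0.0177 by limma), and the levels of its diets overlapped although it was lower in each pair. Adcy6, an adenylyl cyclase inhibited by calcium, had -0.36 ± 0.29 and Pde3a, a phosphodiesterase, -0.32 ± 0.16 (SD, n = 4 each). Of 14 other processing choices, Prkacb and Adcy6 lost their calls under 6 each, Sgk1 under 4 and Rgs2 under 3. Gnas, which encodes the stimulatory G protein of the receptor, had a log2 ratio of -0.00. Of the ligands, Pth had 0.00 and Pthlh, the related peptide, -0.29 (adjusted p = 0.22 by limma). The Pth probe lay near background, with a mean log2 brightness of 6.59, and was above it in 3 of 4 low-diet samples and all 4 high-diet samples. Its ratio therefore does not bound the change in transcript.

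Among 24 measured genes of calcium-sensing receptor signalling, 5 rose and 1 fell (25%, beside 7.82% of all named genes). Itpr1, a calcium release channel of the endoplasmic reticulum, rose by 0.50 ± 0.25 (SD, n = 4; adjusted p = 0.0111 by limma). Flna, a scaffold protein that binds the receptor's tail, rose by 0.43 ± 0.17, and Gnai3, an inhibitory G protein subunit, by 0.35 ± 0.09. Of 14 other processing choices, Flna and Gnai3 lost their calls under 5 each and Itpr1 under 4. Rgs2, given above, was also on this list. Ramp1, which encodes a receptor chaperone, passed at 0.17 but was above 0 in 3 of 4 pairs. The one that fell was Gnai1, another inhibitory subunit, with a log2 ratio of -0.25. Gnaq and Gna11, which encode the G proteins through which the receptor raises cell calcium, had 0.14 and -0.03 and did not pass.

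Other hormone receptors of the distal nephron were listed for comparison, with a median log2 ratio of -0.14. Of 14 measured none passed above 0 and 3 passed below 0, Avpr2 among them (21.4%, beside 7.82% of all named genes). Ptger3, the gene of a prostaglandin E2 receptor (EP3), had the largest difference, at -1.95 ± 0.35 on the log2 scale (adjusted p = 0.00985 by limma), with -0.39 by its dimmer probe. Insr had -0.24 by its brightest probe, while its 3 dimmer probes lay between -0.02 and 0.04, and its call was lost under 7 of 14 other processing choices. Avpr2 had saturated spots in 1 low-diet and 2 high-diet samples, and its sign followed the dye, above 0 in the 2 pairs with the low-diet sample in Cy5 and below 0 in the other pairs, so neither ratio nor direction is given. Nr3c2, the mineralocorticoid receptor, had a log2 ratio of -0.00, and Egfr, the receptor of EGF, had 0.01.

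The genes whose 4 log2 ratios lay nearest to those of each of the 4 genes were sought among 16083 other genes measured above background in all 8 samples. The measure was the root mean square distance between the ratios of the 4 pairs. Nearest to Vdr were Plekha1 at 0.049, Etv5 at 0.117 and Tmsb4x at 0.135. Nearest to Kl were Rnaset2a at 0.104, Ypel5 at 0.106 and Apmap at 0.124. Nearest to Pth1r were Rnaset2a at 0.202, Selenos at 0.207 and Hsph1 at 0.208, so no gene followed Pth1r as closely as others followed Vdr or Kl. Nearest to Casr were Asb9 at 0.078, Tuba1a at 0.111 and Pla1a at 0.175. Tuba1a had the same order of pairs as Casr, with -1.16 in L7/H7 and -0.36 in L8/H8. With only 4 pairs behind it, such a likeness is a description.

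**Figure D4:**
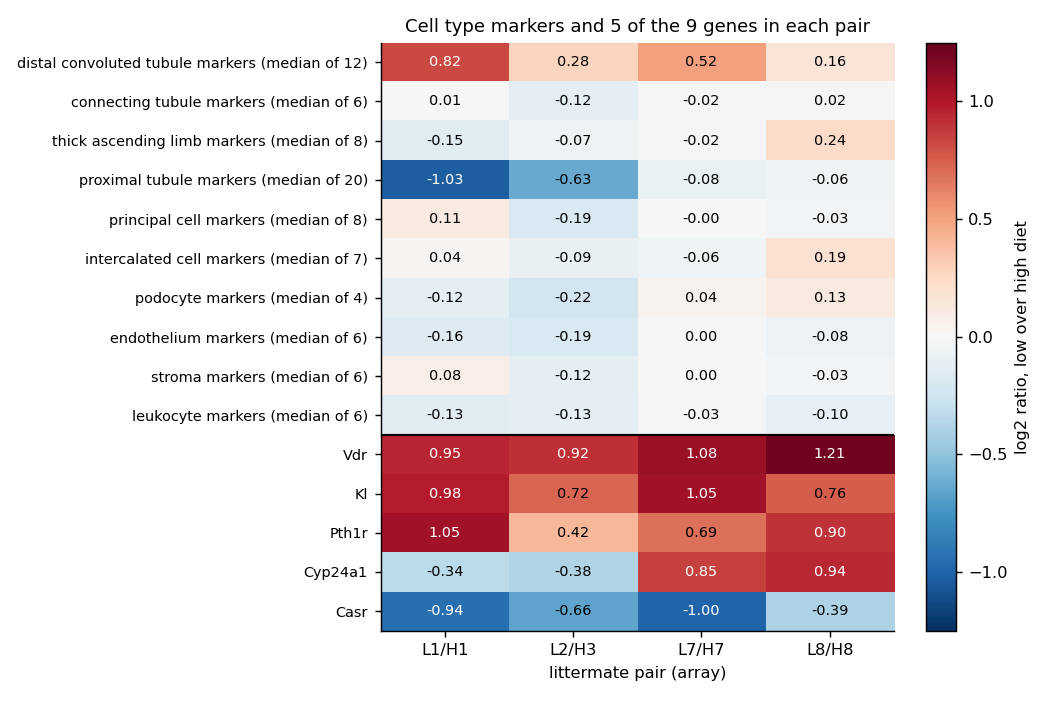
Log2 ratio, low over high magnesium diet (colour and printed number), in each littermate pair (columns) for the median of each cell type marker list (upper rows) and for 5 of the 9 genes (lower rows). DCT markers are above 0 in all 4 pairs, and proximal tubule markers are at -1.03 and -0.63 in the pairs in which Cyp24a1 is below 0.

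The samples were checked against cell type markers. All 12 DCT markers were above background in all 8 samples, and 6 of them rose and none fell on the low diet, where 4.88% of all named genes rose and 2.95% fell. The median log2 ratio of the DCT markers was 0.82 in L1/H1, 0.28 in L2/H3, 0.52 in L7/H7 and 0.16 in L8/H8, and their summed normalized intensity ran from 92531 to 97400 in low-diet samples, against 34822 to 68095 in high-diet samples. Slc12a3, the sodium chloride cotransporter that defines the segment, stood at 0.13 (adjusted p = 0.47 by limma). Pvalb, whose promoter drives the reporter used in the sort, rose by 2.27 ± 0.40 (SD, n = 4; adjusted p = 0.012 by limma), and its part in which fragments were sorted was not tested. The summed intensity of the DCT markers is mostly Egf and Pvalb. Egf had 1 saturated spot, in a low-diet sample. Its log2 ratio was 1.53 in L1/H1 and 1.02 in L7/H7, against 0.14 in L2/H3 and 0.16 in L8/H8. Vdr had its largest ratio in L8/H8, where the DCT markers had their smallest. The brighter Kl probe had 0.98 in L1/H1 and 1.05 in L7/H7, against 0.72 in L2/H3 and 0.76 in L8/H8. Pth1r had its largest ratio, 1.05, in L1/H1, where the DCT markers had theirs. Markers of the thick ascending limb, in which Casr is also expressed, had medians of -0.15 in L1/H1, -0.07 in L2/H3, -0.02 in L7/H7 and 0.24 in L8/H8, and 2 of 8 rose and 1 fell, beside the same shares of all named genes. Their summed normalized intensity ran from 70797 to 96727 in low-diet samples, against 29695 to 52491 in high-diet samples. That sum is mostly Umod and Kcnj1, the 2 that rose (log2 ratios 1.46 and 0.66), and the one that fell was Ptger3, while Slc12a1, the cotransporter that defines the limb, stood at 0.17 and Cldn19, Cldn10 and Cldn16 at -0.28, 0.09 and 0.01. Casr fell most in L7/H7, at -1.004, where the median of this list was -0.02. It fell least in L8/H8, at -0.39, where that median was 0.24.

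Markers of the proximal tubule, where Pth1r, Cyp24a1 and Cyp27b1 are expressed too, were all above background, and 2 of 20 rose and 2 fell (4.88% and 2.95% of all named genes). Their median log2 ratio was -1.03 in L1/H1, -0.63 in L2/H3, -0.08 in L7/H7 and -0.06 in L8/H8, and their summed normalized intensity ran from 6970 to 9244 in low-diet samples, against 7596 to 17283 in high-diet samples. The pairs in which Cyp24a1 was lower on the low diet were thus those with lower proximal tubule markers on that diet, and Pth1r was higher on the low diet in all 4. The part of any cell type in the differences of the 9 genes was not tested. The share of probes above background was 97.4% in L1, 81.1% in L2, 95.02% in L7 and 65.5% in L8, against 85.1% in H1, 92.6% in H3, 85.7% in H7 and 96.2% in H8, each higher in Cy5. Over all probes, the log2 ratios of pairs of the same orientation correlated at 0.629 and 0.535, and those of opposite orientation at 0.064 to 0.320. The dye term passed for 0 of the 15 probes in limma, beside 0.00507% of all probes, and 4 of the 15 had an unadjusted p under 0.05.

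The authors' deposited table gives its own log2 ratio for each probe, high over low diet, and a p-value, without saying whether it was adjusted. In the authors' deposited table the log2 ratio was -1.07 for Vdr (p = 0.0076), -0.91 for the brighter Kl probe (p = 0.0018) and 0.82 for Casr (p = 0.0234). Pth1r, at -0.78 in the authors' deposited table, had a p of 0.2212, so it passed limma's test but not theirs. The other 11 probes had a p of 1 in the authors' deposited table, as did 37011 of its 39429 probes, and 0.728% of all probes had a p under 0.05.

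**Figure D5:**
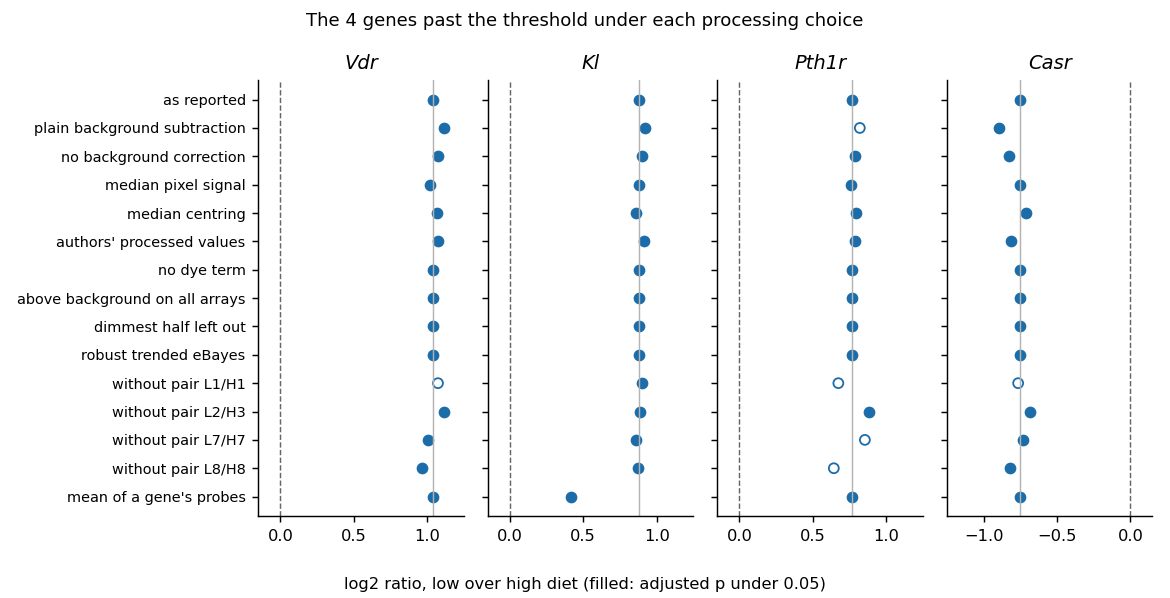
Log2 ratio, low over high magnesium diet (x axis), of the 4 genes past the threshold as reported and under 14 other processing choices (y axis). Filled points had an adjusted p under 0.05 and open points did not. Each gene stays on its side of 0 throughout, Kl is filled in every row, Vdr and Casr are open once, without L1/H1, and Pth1r is open 4 times.

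Direction held for these 4 genes under each of the 14 other processing choices. Kl passed under 14 of 14, Vdr under 13, Casr under 13 and Pth1r under 10. For Kl the dimmer probe, which did not rise, enters only the choice that averages a gene's probes. The range of the log2 ratio was 0.97 to 1.11 for Vdr, 0.42 to 0.92 for Kl, 0.64 to 0.89 for Pth1r and -0.89 to -0.68 for Casr. Without pair L1/H1 only Kl passed, and then 0.318% of all named genes did.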

How the data were processed

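The 9 genes and the gene lists were chosen with earlier results of these data known. The deposited scans give intensities per spot on a linear scale, without background subtraction, per the file headers. The sources used here do not name the scanner. The authors' table of processed values holds a log2 ratio per probe and array. A further table deposited by the authors comes from maanova, per the file headers, and lists for each probe a p-value and a log2 ratio.

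From the scans, mean signal was corrected with normexp (offset 50) against median background, and log2 ratios were normalized by loess within each array, with the 5791 control spots at weight 0. Each ratio was turned to run low over high. limma 3.58.1 in R 4.3.3 fitted a diet term and a dye intercept, with 2 residual and 2.68 prior degrees of freedom. Tests were 2-sided, with Benjamini-Hochberg adjustment at 0.05 over 39429 probes. The SD after ± is over the 4 ratios, dye effect included. Levels of single samples come from a further quantile normalization of mean brightness between arrays.

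Symbols came from the platform annotation, updated through RefSeq (GRCm38.p6), and 32431 probes had 1. A gene is represented by its brightest probe. Above background means above the 99th percentile of a dim control with 604 spots, and saturated means a median of 65000 or more. Named were the 9 genes, fixed neighbours in their pathways, and up to 4 genes a list that passed with 1 sign throughout and had the largest ratios. Spry2, Spry4, Spred1, Etv4, Egr1, Pde3a, Ramp1, Gnai1, Nr3c2, Egfr and the markers of cell types were named after their values were seen. The steps were tested on simulated data. Alternatives were background correction, pixel summary, normalization, the authors' values, the dye term, filters, moderation, leaving out each pair, and averaging a gene's probes.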

Additional observations from a re-analysis of the deposited data

Results flagged for a closer look

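Among 147 groups of 4 values (ratios and levels of the named probes), 8 held 1 value far from the other 3, by Dixon's test of the gap against the range. Chance alone gives about 1 such value in 20 groups, close to what was seen. Of the 9 genes, the dimmer Kl probe stood at 7.884 in L1 against 8.034 to 8.059 in the other low-diet samples, and the brightest Fgfr3 probe had a log2 ratio of -0.1674 in L8/H8 against -0.0394 to -0.0211 in the other pairs. Of the partner genes, 4 more were low in L1: Prkacb at 11.2 (others 11.49 to 11.53), Spry1 at 8.922 (9.436 to 9.527), Cyp27a1 at 7.352 (7.463 to 7.473) and Atp2b1 at 7.131 (7.424 to 7.444), as normalized log2 levels. Slc8a1 stood at 7.761 in L2 against 7.727 to 7.732 in the other low-diet samples, and Rgs2 at 7.674 in H7 against 7.046 to 7.149 in the other high-diet samples.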

How the results depend on the processing

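Over all probes 2296 passed the threshold, but 279 with plain background subtraction, 824 without the dye term and between 83 and 863 with 1 pair left out, where fewer samples remain. Among the 128 list genes 21 passed, but 6 with plain subtraction, 9 without the dye term and between 2 and 10 with 1 pair left out. Probes and genes of the 9 that passed were 4 each, and between 1 (without L1/H1) and 4 with 1 pair left out. The share of calls above 0 was 59.7%, against 73.1% with plain subtraction and 69.3% without the dye term, and between 62% and 80% with 1 pair left out. Dye effects past the threshold were 0 of 15 probes, and 11 with median centring in place of loess. Of 599 values over 43 named genes and 14 alternatives, 489 kept direction and side of the threshold, 77 fell short of it, 7 newly passed and 26 reversed, all 26 for genes that did not pass. With 1 pair left out, log2 ratios ran from -0.0599 to 0.597 for Cyp24a1, -0.0128 to 0.0155 for Cyp27b1, -0.0349 to 0.0826 for Fgfr2, -0.0334 to 0.0841 for Atp2b1, -0.0125 to 0.0135 for Pth, -0.0183 to 0.0085 for Klb and -0.0224 to 0.0142 for Gnas. Averaging a gene's probes turned Rxra to -0.0604, Slc8a1 to 0.0158 and Atp2b1 to -0.0543. Median pixel signal turned Cyp27b1 to -0.00453, Klb to 0.000871 and Gnas to 0.0076, and the authors' values turned them to -0.00777, 0.000936 and 0.0383. Plain subtraction turned Klb to 0.031 and Gnas to 0.0235, no background correction turned them to 0.010 and 0.0094, and median centring turned Klb to 0.0026. The causes were not tested. Every ratio is within a littermate pair on 1 array, so the fit is paired by its construction, and no unpaired fit was run.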
